A study of Mus musculus with 4 samples.

Results

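The immunoglobulin variable (V) segment repertoire was described in RNA of tibial bone marrow from obese mice with and without exercise. Every gene whose name begins with Ighv (heavy chain), Igkv (kappa light chain) or Iglv (lambda light chain) was taken if its FPKM (sequenced fragments per length of transcript and depth of library) was above 0 in at least 1 library. The members were thus chosen by their measured FPKM, and no test is made of their being present. The rule gave 216 of the 346 annotated V genes, among 55401 genes in all: 111 of 183 Ighv, 102 of the 160 Igkv and all 3 Iglv genes. The other 130 were listed at 0 in every library. Levels are given throughout as scaled FPKM, that is FPKM divided by the library's median-of-ratios factor (0.949 to 1.03). The members nearest to that limit were Igkv3-6, with a single value of 0.014 in Ob mouse 1, and Igkv4-60, with a single value of 0.0367 in the same mouse.

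Male wild-type C57/B6 mice were put on a high-fat diet (HFD) at 8 weeks of age until obese, and all 4 mice analysed here were on HFD. The obesity group (Ob, labelled HFD) had 2 mice without exercise, and the exercise group (Ob + Exe, labelled HFD and Exercise) had 2 mice that ran on a treadmill at moderate intensity for 12 weeks. Each library was bulk RNA of whole marrow from the tibia, with no cell sort described. With 2 mice a group, an exact permutation test over mice cannot give a two-sided p below 0.333, and in bulk RNA fewer B-lineage cells and less RNA per cell cannot be told apart. The libraries held 44310500 to 53038200 read equivalents (summed coverage in bases divided by the 150-base read length). The labels also name mesenchymal stem cells and fibroblasts. Of the 9 stroma and fibroblast genes checked, Col3a1, Pdgfra and Lum were at 0.216 to 0.687, 0.265 to 0.385 and 0.248 to 0.818 scaled FPKM. Pdgfrb was at 0.889 to 1.82 and Col1a1 at 1.18 to 3.13. Higher were Dcn at 3.42 to 6.35, Lepr at 3.70 to 7.17 and Col1a2 at 5.02 to 7.28. Some blood cell genes were far above them: Hbb-bs, a beta globin, was at 17631 to 43309 scaled FPKM, and S100a8, a neutrophil gene, at 12006 to 35688. Others checked were much lower, among them Ctsg, also of neutrophils, at 37.6 to 91.2 and Cd3e, of T cells, at 0.368 to 2.37. The stroma genes in the list checked included Cxcl12, a chemokine of marrow stroma, at 89.3 to 143 scaled FPKM.

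Each B cell builds its antibody genes by V(D)J recombination, which joins 1 of many V segments to a J segment, with a D segment between them on the heavy chain. A V segment has a short leader exon and a main exon that encodes most of the antigen-binding domain, and its RNA is spliced to a constant gene such as Ighm or Igkc. Descendants of a B cell keep its rearrangement, so they transcribe the same V segment. Bone marrow both makes new B cells and houses plasma cells, which secrete antibody and hold very large amounts of immunoglobulin RNA. Mice use kappa light chains far more than lambda ones.

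The sequences below are the last 300 coding bases of the segments on which the results turn, 5′ to 3′, from the GENCODE vM21 transcripts on GRCm38. Each is preceded by its genomic position, which covers leader exon, intron and main exon of the whole segment. Capitals mark the bases that differ from the most similar V segment, or that have no counterpart there. The first set is the most abundant kappa segment of Ob mouse 1 and its closest relative, which differ at 16 of 347 coding bases, all of them in the stretch shown, and which did not follow each other across the mice.
Igkv10-96 (chr6:68631963-68632442, minus strand): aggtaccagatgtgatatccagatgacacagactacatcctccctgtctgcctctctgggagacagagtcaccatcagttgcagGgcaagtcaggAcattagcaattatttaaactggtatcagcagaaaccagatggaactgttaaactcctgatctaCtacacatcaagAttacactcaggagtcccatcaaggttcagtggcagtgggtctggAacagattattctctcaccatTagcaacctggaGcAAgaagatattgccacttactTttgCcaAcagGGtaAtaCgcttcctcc
Igkv10-94 (chr6:68704508-68704978, minus strand): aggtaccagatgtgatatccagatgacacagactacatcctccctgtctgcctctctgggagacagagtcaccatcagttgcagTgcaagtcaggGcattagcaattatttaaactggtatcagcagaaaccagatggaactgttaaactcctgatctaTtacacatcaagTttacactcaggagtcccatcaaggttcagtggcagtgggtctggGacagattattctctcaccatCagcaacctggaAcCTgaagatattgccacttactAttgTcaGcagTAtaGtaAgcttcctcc

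The 2 lambda segments below differ least of those shown: over the coding part 13 bases of Iglv1 and 10 of Iglv2 differ from or are missing in the other, and 8 of each are in the stretch shown. Iglv1 was the most abundant lambda segment in all 4 mice.
Iglv1 (chr16:19085017-19085500, minus strand): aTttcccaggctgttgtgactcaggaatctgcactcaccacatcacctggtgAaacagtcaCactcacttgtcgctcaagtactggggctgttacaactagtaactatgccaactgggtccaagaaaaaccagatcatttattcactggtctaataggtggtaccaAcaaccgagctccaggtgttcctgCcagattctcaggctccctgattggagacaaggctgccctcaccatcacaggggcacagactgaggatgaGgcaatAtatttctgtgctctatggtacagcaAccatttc
Iglv2 (chr16:19260401-19260859, minus strand): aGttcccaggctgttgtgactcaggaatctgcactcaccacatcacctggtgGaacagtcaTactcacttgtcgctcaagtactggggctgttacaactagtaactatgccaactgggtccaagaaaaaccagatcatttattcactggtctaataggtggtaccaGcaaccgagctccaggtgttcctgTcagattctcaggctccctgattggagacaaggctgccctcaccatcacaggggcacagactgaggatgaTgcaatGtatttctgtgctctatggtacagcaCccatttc

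The last set holds the other segments that led a locus in 1 Ob mouse (Ighv1-75, Ighv5-16 and Igkv1-88) and Igkv9-120, second at the kappa locus of Ob mouse 1, with capitals against the nearest relative of each. Ighv1-75 differs from Ighv1-66 at 20 of 351 bases and Igkv9-120 from Igkv9-129 at 28 of 353. Ighv5-16 differs from Ighv5-12 at 49 of 350 bases and Igkv1-88 from Igkv1-110 at 55 of 362, more than for the other segments printed. The stretches shown hold 20, 25, 40 and 44 of these differences, in the order Ighv1-75, Igkv9-120, Ighv5-16 and Igkv1-88.
Ighv1-75 (chr12:115833950-115834418, minus strand): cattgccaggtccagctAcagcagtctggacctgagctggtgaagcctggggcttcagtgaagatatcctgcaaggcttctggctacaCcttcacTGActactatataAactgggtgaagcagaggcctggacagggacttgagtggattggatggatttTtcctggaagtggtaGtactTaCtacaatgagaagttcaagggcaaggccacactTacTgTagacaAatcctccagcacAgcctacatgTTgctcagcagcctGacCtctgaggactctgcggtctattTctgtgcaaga
Igkv9-120 (chr6:68049983-68050456, plus strand): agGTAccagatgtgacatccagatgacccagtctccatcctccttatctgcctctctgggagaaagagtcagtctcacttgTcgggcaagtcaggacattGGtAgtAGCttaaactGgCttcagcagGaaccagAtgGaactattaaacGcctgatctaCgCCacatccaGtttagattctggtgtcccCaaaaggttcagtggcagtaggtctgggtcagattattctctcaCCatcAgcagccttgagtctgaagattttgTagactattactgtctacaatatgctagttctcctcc
Ighv5-16 (chr12:113838526-113839010, minus strand): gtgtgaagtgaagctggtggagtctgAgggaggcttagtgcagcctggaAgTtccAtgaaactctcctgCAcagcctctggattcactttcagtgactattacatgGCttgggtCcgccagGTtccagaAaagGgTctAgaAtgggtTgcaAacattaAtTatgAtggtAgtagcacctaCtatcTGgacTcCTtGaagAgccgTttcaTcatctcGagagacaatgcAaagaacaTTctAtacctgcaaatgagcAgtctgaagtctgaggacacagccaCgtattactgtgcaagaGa
Igkv1-88 (chr6:68862265-68863031, minus strand): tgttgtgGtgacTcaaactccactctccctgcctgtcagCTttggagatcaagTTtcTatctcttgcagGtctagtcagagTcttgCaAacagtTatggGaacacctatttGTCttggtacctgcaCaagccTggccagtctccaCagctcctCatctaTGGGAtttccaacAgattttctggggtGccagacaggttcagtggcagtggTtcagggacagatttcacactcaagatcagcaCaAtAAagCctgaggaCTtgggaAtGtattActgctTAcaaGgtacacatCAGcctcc

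V segments resemble each other, which limits how surely a read can be given to 1 of them. Of the 216 members, 134 shared at least 1 stretch of 75 bases with another annotated gene, and 95 had a nearest V segment more than 95% identical. Among the segments that led Ighv or Igkv in a mouse, Igkv4-59 shared 42.5% of its 75-base windows with 10 other genes. Ighv1-75 shared 28.1%, Igkv10-96 20% and Ighv8-8 17.3%, while Igkv1-88, Ighv5-16, Ighv1-9 and Igkv12-46 shared none. By annotation 186 members were functional V genes, 27 were pseudogenes and 3 (Igkv4-54, Igkv4-62 and Igkv4-71) carried the protein-coding label. The motif TANTANTGN, which reads as the tyrosine-tyrosine-cysteine codons near the end of a V exon, stood on the sense strand in the last 40 bases of 155 members, 138 of the 186 functional ones and 14 of the 27 pseudogenes. The same letters were in the last 40 bases of 0.860% of all annotated transcripts, and in none of the 3 Iglv segments. The reference promoter table held no V segment, so no promoter is shown.

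V segment RNA differed more within the groups than between them. The summed level over all members was 1471 in Ob mouse 1, 318 in Ob mouse 2, 402 in Ob + Exe mouse 1 and 939 in Ob + Exe mouse 2. Each group thus had 1 mouse with high and 1 with low V RNA, the groups overlapped, and the highest library was 4.63 times the lowest. On average V RNA stood at 894 ± 815 (SD, n = 2) without exercise and 670 ± 380 (SD, n = 2) with it. Log2 ratios between the groups are differences of the group means of log2 values, so they need not have the sign of a difference of plain means, and that of the V total was -0.16 (exact permutation p = 1, two-sided). The sign of that ratio followed the mice included: it was 0.95 without Ob mouse 1 and -1.26 without Ob mouse 2, 0.46 without Ob + Exe mouse 1 and -0.77 without Ob + Exe mouse 2. The totals rested on 7698 read equivalents in Ob mouse 2 and 8547 in Ob + Exe mouse 1, against 36583 in Ob mouse 1 and 18911 in Ob + Exe mouse 2.

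The 3 loci had the same high and low mice. Heavy-chain segments summed to 514 and 95.2 in the Ob mice and to 129 and 354 in the Ob + Exe mice (log2 ratio -0.05, exact permutation p = 1). Kappa segments summed to 899 and 193 in the Ob mice and to 248 and 520 in the exercised mice (log2 ratio -0.21, exact permutation p = 1). Lambda segments summed to 58.1 and 29.3 in Ob against 24.6 and 64.5 in Ob + Exe (log2 ratio -0.05, exact permutation p = 1), while the plain means were 43.7 and 44.6. Each group thus held a high and a low mouse at every locus, and the groups overlapped. Kappa took 93.9% and 86.8% of light-chain V RNA without exercise and 91.0% and 89.0% with exercise, a difference of -0.42 percentage points that was smaller than the SD of 5.01 points between the Ob mice.

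**Figure D1:**
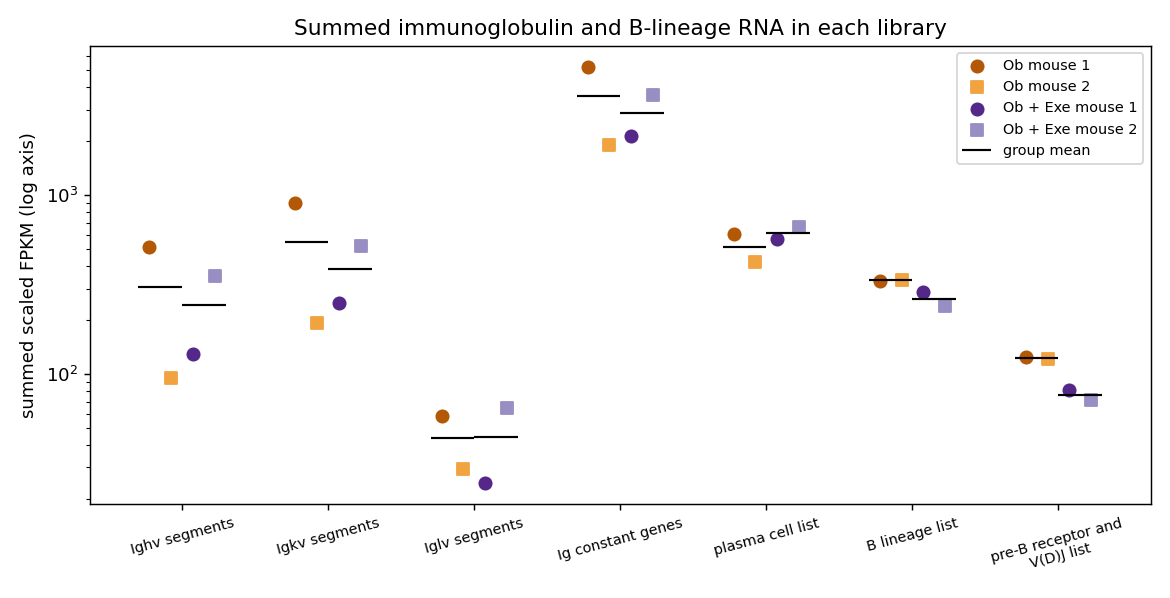
Summed scaled FPKM (log axis) of the V segments of each locus, the immunoglobulin constant genes and 3 marker lists, with 1 point per mouse and a bar at each group mean (n = 2). For the V segments and constant genes Ob mouse 1 and Ob + Exe mouse 2 lie above the other mice, while the pre-B receptor and V(D)J list is at 124 and 120 in the Ob mice and at 81.3 and 71.8 in the exercised mice.

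The constant genes, to which V exons are spliced, moved with the V segments from mouse to mouse. The 12 constant genes summed to 5216 and 1912 in Ob against 2150 and 3636 in Ob + Exe, so the same 2 libraries were high. Ighm, the constant gene of IgM, was at 1396 and 441 without exercise and at 697 and 766 with exercise. Igkc, the kappa constant gene, was at 3031 and 1030 in the Ob mice and at 973 and 2067 in the exercised mice. V RNA equalled 28.2% and 16.6% of constant RNA in Ob against 18.7% and 25.8% in Ob + Exe, and this share too was lower in the 2 low libraries, with plain means of 22.4% and 22.2% and a difference of mean log2 values of 0.02 (exact permutation p = 1). A gene is named called below where its log2 fold change was beyond 1 with p under 0.05 before adjustment, in a limma fit over all genes with enough signal. This took in 3.71% of the genes tested, none of which passed 0.05 after adjustment. None of the 11 constant genes tested was called, and Ighe, the constant gene of IgE, was listed at 0 throughout.

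Marker genes of the B-cell stages did not all follow the V totals. The plasma cell list (15 genes) summed to 607 and 424 without exercise and to 568 and 659 with exercise, a narrower range than that of V RNA, and none of its genes was called. Jchain, which links secreted IgM and IgA and is abundant in plasma cells, was at 312 and 142 in the Ob mice and at 252 and 350 in the exercised mice. It was the highest gene of the list in every mouse and had the high and low mice of the V totals. The next highest, Sec11c and Xbp1, varied less. Sec11c was at 81.5 and 93.6 in Ob against 90.5 and 104 in Ob + Exe, and Xbp1 at 67.4 and 60.3 against 64.6 and 64.3. The narrow range of the sum thus came from genes other than Jchain. The 13 genes of the pre-B receptor and of V(D)J recombination were lower on balance in Ob + Exe. Of these 13, 12 had a log2 fold change below 0, against 9693 of the 18596 genes tested. Their median was -0.45 against -0.02 over all genes tested. Called lower were 2 of the 13, against 2.73% of all genes tested. Those were Igll1 and Vpreb2, both parts of the surrogate light chain that pairs with the heavy chain in pre-B cells. Igll1 was at 14.4 and 13.0 in Ob against 4.998 and 3.52 in Ob + Exe (limma adjusted p = 0.943), and Vpreb2 was at 1.63 and 0.814 without exercise and at 0.267 and 0 with exercise (limma adjusted p = 0.960). The B lineage list had 18 of 20 genes below 0 with a median of -0.38, and Cd79a, a signalling partner of the B-cell receptor, was called lower (48.3 and 44.6 in Ob, 21.6 and 23.4 in Ob + Exe, limma adjusted p = 0.943). Of the class switch and hypermutation list, 0 of 6 were called. The neutrophil list (10 genes) summed to 49221 and 28032 in the Ob mice and to 36155 and 64773 in the exercised mice. That sum, led by S100a8 and S100a9 in every mouse, had the high and low mice of the V totals. Lcn2, Ltf, Mmp8 and Ngp had them too. Mpo, Elane and Ctsg were instead higher in Ob + Exe mouse 1 than in Ob + Exe mouse 2. Camp was at 2262 and 1807 in Ob against 2743 and 2762 in Ob + Exe. What part these cell types had in the V values was not tested.

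Which segments made up the V RNA differed from mouse to mouse, and a few segments led in each. In Ob mouse 1 the leading heavy-chain segment was Ighv1-75, at 139 scaled FPKM and 27.0% of all Ighv RNA. The same segment was at 0.952 in Ob mouse 2 and at 2.03 and 3.01 in the Ob + Exe mice, so it was abundant in 1 mouse of 4. The leading kappa segments of that mouse were Igkv10-96, at 213 (3.73 in Ob mouse 2, 14.97 and 27.3 in Ob + Exe), and Igkv9-120, at 164 (6.31 in Ob mouse 2, 1.45 and 18.8 in Ob + Exe). Together with Igkv4-55, at 48.7 in Ob mouse 1, 0.978 in Ob mouse 2 and 4.83 and 14.8 in Ob + Exe, they were the top 3 kappa segments of Ob mouse 1. Igkv10-94, whose sequence is close to that of Igkv10-96, was at 5.53 in Ob mouse 1, 0.914 in Ob mouse 2 and 6.79 and 30.6 in Ob + Exe, so its highest mouse was another one.

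Ob mouse 2, with the lowest V total, was led by other segments. Ighv5-16 was at 26.0 there and made up 27.4% of its Ighv RNA, against 4.03 in Ob mouse 1 and 0 and 0.973 in Ob + Exe. Igkv1-88 was at 70.7 there, the largest share any segment had of a locus with more than 3 members (36.6% of Igkv), against 1.30 in Ob mouse 1 and 0 and 0.4995 in Ob + Exe. These values rested on 653 and 1698 read equivalents. The next segments of this mouse were much lower: Ighv1-41, annotated as a pseudogene, was at 5.39, and Igkv1-110 was at 8.34. Ighv1-41 was also the most even of the abundant segments, at 5.57 in Ob mouse 1 and 5.95 and 6.77 in Ob + Exe.

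No segment reached such a share in the Ob + Exe mice. In Ob + Exe mouse 1 the leading segments were Ighv1-9, at 12.1 and 9.36% of Ighv RNA (9.31 and 3.98 in Ob, 3.54 in Ob + Exe mouse 2), and Igkv12-46, at 30.0 and 12.1% of Igkv RNA (8.54 and 0.770 in Ob, 19.7 in Ob + Exe mouse 2). Igkv19-93 at 21.9 and Igkv3-2 at 21.4 came next in that mouse. In Ob + Exe mouse 2 Ighv8-8 led the heavy chain at 40.8 and 11.5%, but it was as high in Ob mouse 1 (40.1), and at 2.25 and 4.27 in the 2 low mice. Igkv4-59 led the kappa locus there at 64.3 and 12.4%, with 30.0 and 6.58 in Ob, and was listed at 0 in Ob + Exe mouse 1. Ighv1-26, the second heavy-chain segment of both high mice, was at 67.6 in Ob mouse 1 and 28.2 in Ob + Exe mouse 2, with 2.71 and 6.99 in the others.

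Further abundant segments showed the same high and low mice. Ighv3-6 was at 16.2 and 2.66 in the Ob mice and at 3.88 and 24.6 in the exercised mice, and Ighv1-81 at 14.99 and 2.72 in Ob against 1.797 and 22.9 in Ob + Exe. Igkv1-110 was at 35.9 and 8.34 without exercise and at 6.56 and 53.2 with exercise. Ighv1-80 stood out in 1 mouse, at 26.7 in Ob + Exe mouse 2 against 8.44, 0.601 and 1.58 in the others. Ighv5-9-1 was at 29.6 in Ob mouse 1, 0.764 in Ob mouse 2, 0 in Ob + Exe mouse 1 and 3.40 in Ob + Exe mouse 2. The groups overlapped for each of these 5 segments, and none was called.

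**Figure D2:**
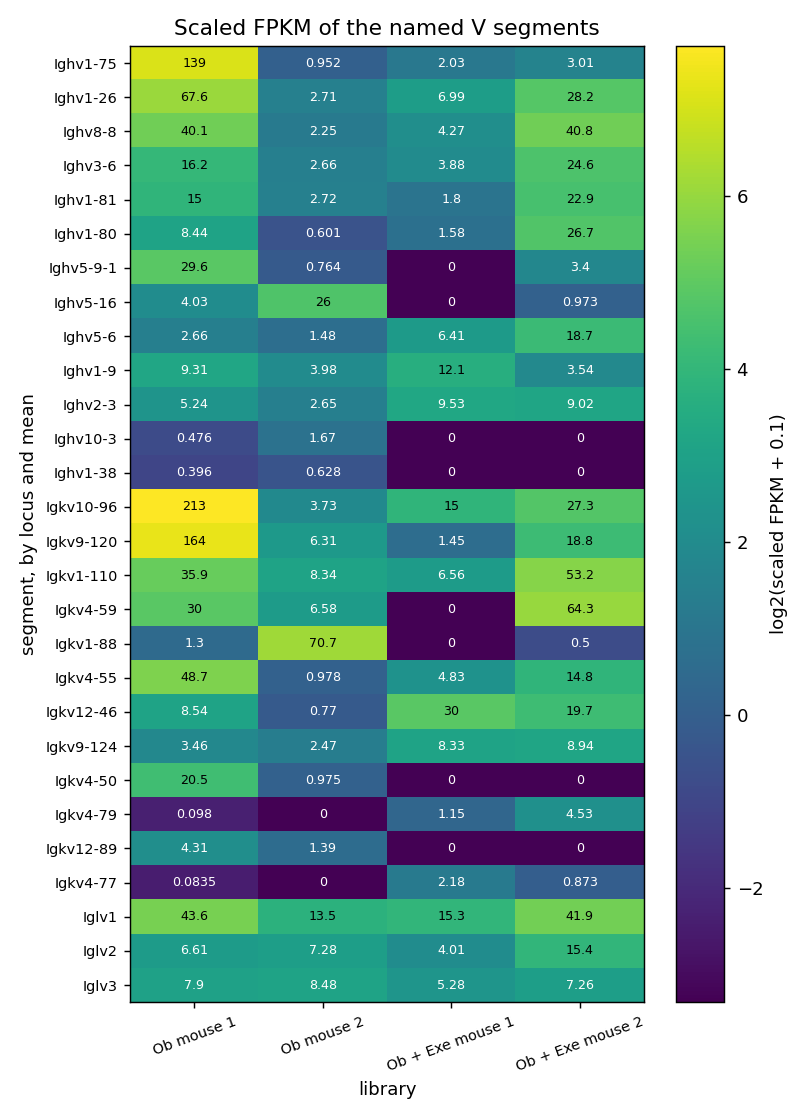
Scaled FPKM of the named V segments (rows, by locus and mean) in the 4 libraries (columns), with the value printed in each cell and the colour on the log2(scaled FPKM + 0.1) scale. Ighv1-75 and Igkv10-96 are brightest in Ob mouse 1 (139 and 213) and Ighv5-16 and Igkv1-88 in Ob mouse 2 (26.0 and 70.7), and Igkv10-96 also reaches 27.3 in Ob + Exe mouse 2.

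The leading segments lay at different distances from the J segments. On chromosome 12 Ighv1-75 of Ob mouse 1 was 2404 kb from the first Ighj segment and Ighv5-16 of Ob mouse 2 was 409 kb from it, with Ighv1-9 at 1154 kb and Ighv8-8 at 1864 kb for the Ob + Exe mice. When the Ighv members were ordered by this distance and cut into 3 sets of 37, the set nearest the J segments held 19.9% and 46.1% of Ighv RNA in the Ob mice and 34.8% and 26.5% in the exercised mice. The farthest set held 50.4% and 21.4% in Ob against 19.0% and 44.5% in Ob + Exe, so it was large in the 2 high mice. On chromosome 6 the farthest kappa set held 61.8% and 29.0% without exercise and 41.6% and 46.7% with exercise, and the nearest kappa set 20.3% and 22.2% in the Ob mice and 33.9% and 22.2% in the exercised mice. Kappa segments lie in both orientations, and those on the minus strand held 60.1% to 67.9% of Igkv RNA in the 4 mice.

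**Figure D3:**
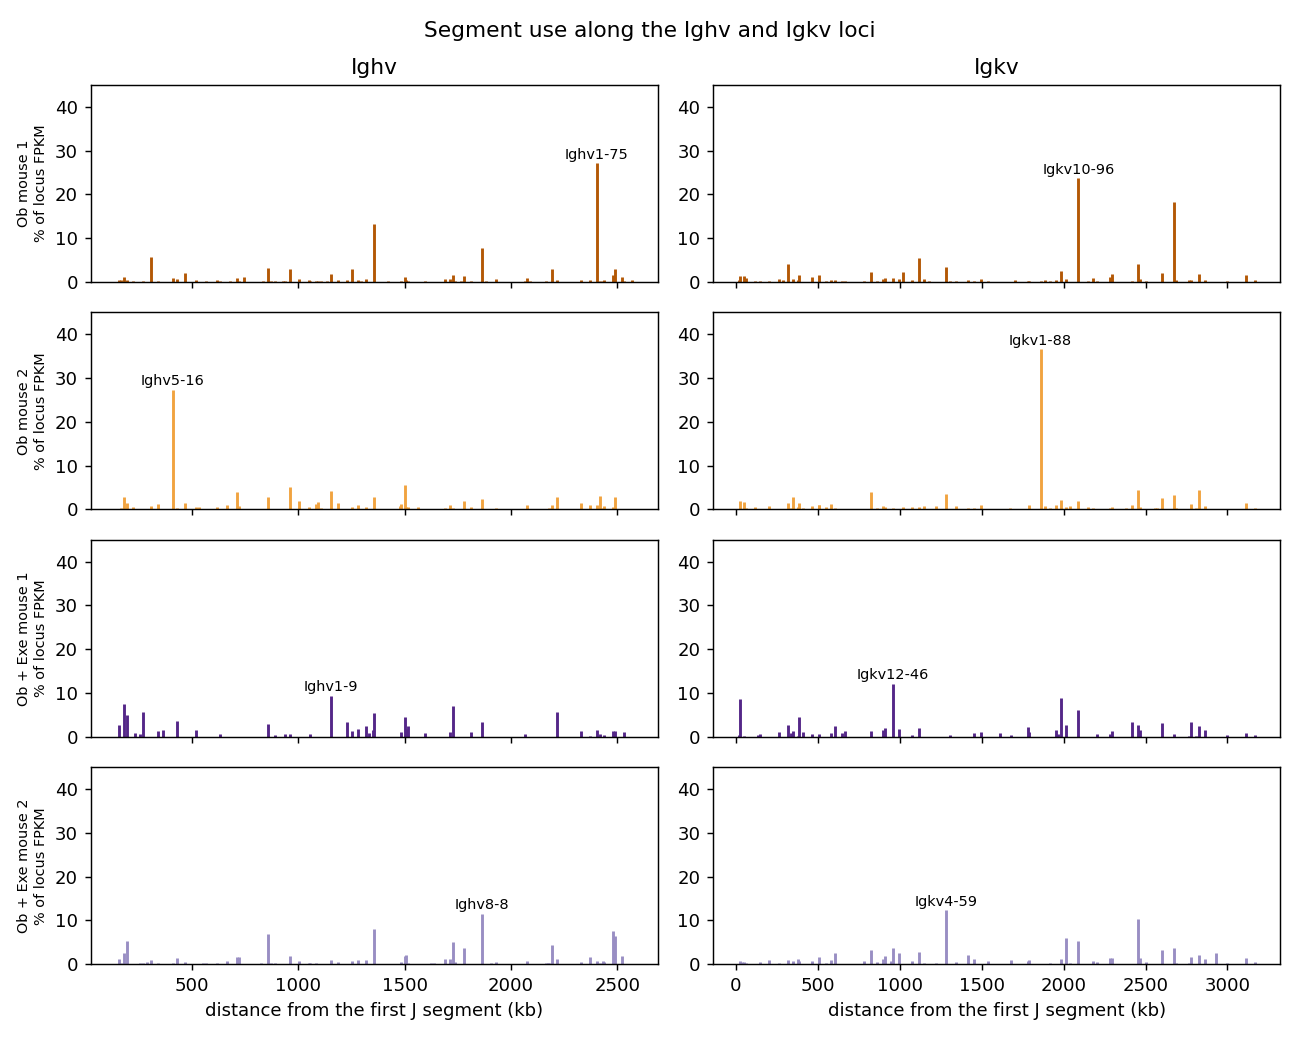
Percent of each library's Ighv (left) and Igkv (right) FPKM held by each member, against its distance in kb from the first J segment of the locus, with 1 row of panels per mouse and the leading segment named. Single tall lines reach 23.6% to 36.6% in the Ob mice, and no line passes 12.4% in the Ob + Exe mice.

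Segment use was more even in both Ob + Exe mice than in both Ob mice. The effective number of segments (inverse Simpson number, the count of equally used segments that would give the same concentration) was 9.34 and 10.8 for Ighv in Ob against 23.3 and 20.9 in Ob + Exe. For Igkv it was 9.85 and 6.82 without exercise and 21.3 and 22.6 with exercise. The group means were 10.05 ± 0.996 and 22.1 ± 1.67 (SD, n = 2) for Ighv and 8.34 ± 2.14 and 22.0 ± 0.912 (SD, n = 2) for Igkv, and the groups overlapped at neither locus. The exact permutation p was 0.333 for both, the smallest that 2 mice against 2 can give, so the test could not pass 0.05. Ob mouse 2 and Ob + Exe mouse 1, whose V read equivalents were close (7698 and 8547), had 10.8 against 23.3 for Ighv and 6.82 against 21.3 for Igkv. The part of depth in evenness was not tested, nor that of the zeros of Ob + Exe mouse 1 described below.

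The leading segments held larger shares in both Ob mice than in both Ob + Exe mice. The top segment held 27.0% and 27.4% of Ighv RNA in the Ob mice and 9.36% and 11.5% in the exercised mice, and 23.6% and 36.6% of Igkv RNA in Ob against 12.1% and 12.4% in Ob + Exe. The top 5 kappa segments held 55.5% and 52.5% without exercise and 40.2% and 37.5% with exercise. The number of segments needed for 90% of the RNA was alike in all mice, at 33 and 33 in the Ob mice and 29 and 35 in the exercised mice for Ighv, and at 33 and 36 in Ob against 33 and 40 in Ob + Exe for Igkv. When each mouse's own leading segment was left out of that mouse alone, the groups overlapped. The leader held a larger share in the Ob mice, so this step by its design favours a smaller difference. The effective number was then 15.7 and 29.0 without exercise and 24.0 and 22.6 with exercise for Ighv, and 12.8 and 31.3 in the Ob mice and 24.0 and 26.5 in the exercised mice for Igkv. The difference between groups shrank from 12.0 to 0.968 segments for Ighv and from 13.6 to 3.22 for Igkv. After this step Ob mouse 1 had the lowest effective number of all mice at both loci, and Ob mouse 2 the highest.

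**Figure D4:**
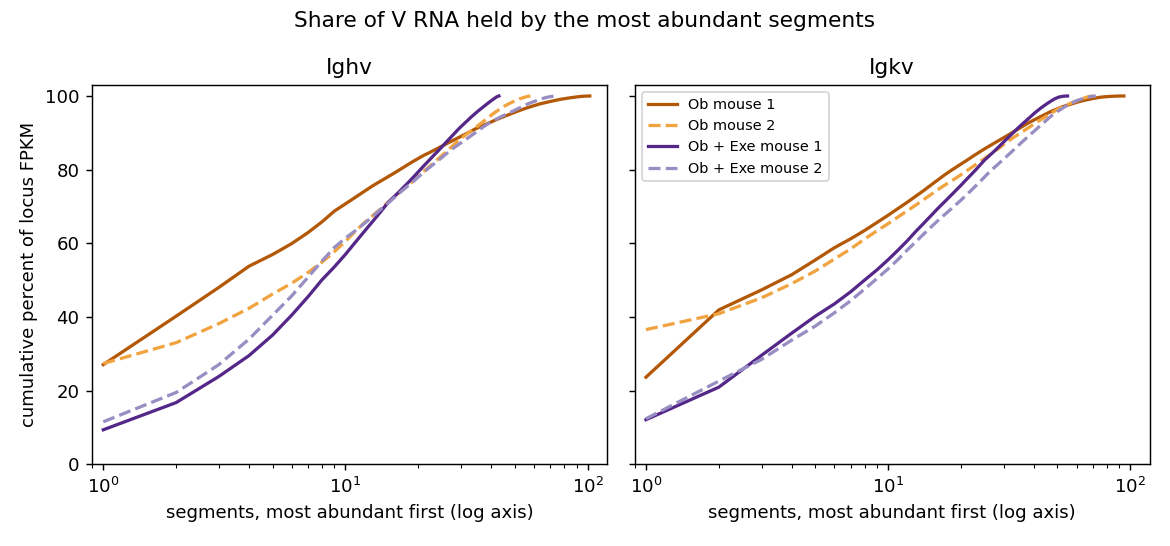
Cumulative percent of Ighv (left) and Igkv (right) FPKM against the number of segments counted, most abundant first (log axis), with 1 line per mouse. The Ob lines start at 23.6% to 36.6% and the Ob + Exe lines at 9.36% to 12.4%, and the lines draw together toward 90%.

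Lambda use rested on 3 segments and had its own pattern. Iglv1 was at 43.6 and 13.5 in Ob against 15.3 and 41.9 in Ob + Exe, which was 46.2% to 75.01% of lambda V RNA. Iglv2 was at 6.61 and 7.28 without exercise and at 4.01 and 15.4 with exercise. Iglv3 was the most even of them, at 7.90 and 8.48 in the Ob mice and at 5.28 and 7.26 in the exercised mice, with a log2 fold change of -0.40 ± 0.28 (SE, limma adjusted p = 0.960). Its values in Ob + Exe lay below those in Ob, but the change was under the fold limit for a call. Iglv1 overlaps another annotated gene (2010309G21Rik), and the reads were not stated to be strand-specific, so reads of both cannot be told apart.

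By sequence family, the Ighv1 family, with 59 members the largest, held 67.3% and 39.0% of Ighv RNA in Ob against 54.8% and 56.8% in Ob + Exe. The Ighv5 family held 8.46% and 30.2% in Ob, with Ighv5-16 holding most of the share in Ob mouse 2, and 14.9% and 8.59% in Ob + Exe. The shares of Ighv2 (1.87% and 4.53% in Ob, 13.6% and 4.96% in Ob + Exe) and Ighv8 (8.70% and 5.46% in Ob, 9.84% and 13.7% in Ob + Exe) were higher in both Ob + Exe mice. That of Ighv6 was lower, at 3.58% and 7.09% without exercise and 0.596% and 2.67% with exercise. Among kappa families, Igkv12 (2.82% and 2.47% in Ob, 14.2% and 7.10% in Ob + Exe) and Igkv8 (2.87% and 3.87% in Ob, 6.07% and 6.52% in Ob + Exe) were higher in both Ob + Exe mice. Igkv1 held 8.62% and 45.8% in the Ob mice and 7.13% and 15.9% in the exercised mice, and Igkv10 held 24.3% and 3.23% in Ob against 8.77% and 11.3% in Ob + Exe, and both were highest in 1 Ob mouse. Of the 34 families compared, 9 (26.5%) did not overlap between the groups, against 32.7% of all genes tested, and no family reached an exact permutation p below 0.333. Pseudogenes held 1.63% and 7.23% of Ighv RNA without exercise and 7.39% and 2.28% with exercise, larger shares in the 2 mice with little V RNA.

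Segment by segment, members were tested in a limma fit over the 18596 genes whose mean FPKM reached 0.1, of which 188 were V segments and 28 members were too low to enter. No gene passed an adjusted p of 0.05, and the smallest was 0.768 over all genes and 0.856 among V segments. At an unadjusted p under 0.05 there were 933 genes, 21 of them V segments. By the rule for calls given above, 9 V segments were lower and 12 higher in Ob + Exe, which is 11.2% of the 188 against 3.71% of all genes tested (2.73% lower and 0.979% higher). V segments spread more between mice than other genes, and how far this raised their share of calls was not tested. Over the 188 segments 95 had a log2 fold change below 0 and 93 above 0, and the median was -0.04 against -0.02 over all genes. The V calls depended on single mice: they were 25 lower and 1 higher without Ob mouse 2, 30 and 10 without Ob + Exe mouse 2, 13 and 16 without Ob mouse 1, and 12 and 15 without Ob + Exe mouse 1. The share of all genes called in the same fits was 4.01%, 10.3%, 4.64% and 6.79%, in that order, so calls over all genes moved as well. The groups failed to overlap for 19 segments lower and 23 higher in Ob + Exe, together 22.3% against 32.7% of all genes (18.7% lower and 14% higher).

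None of the 9 segments called lower was above 0 in all 4 mice. Igkv12-89 had the smallest p, at 4.31 and 1.39 in Ob and listed at 0 in both Ob + Exe mice (limma adjusted p = 0.856). Igkv4-50 was at 20.5 and 0.975 in Ob and also listed at 0 in both Ob + Exe mice, as were Ighv10-3 (0.476 and 1.67 in Ob) and the pseudogene Ighv1-38 (0.396 and 0.628 in Ob). Ighv5-16 and Igkv1-88, described above, had their highest value in Ob mouse 2 and were listed at 0 in Ob + Exe mouse 1. The remaining 3 were Ighv2-4, Ighv1-47 and the pseudogene Ighv8-10, each under 1 FPKM in Ob and at 0 in Ob + Exe. A fitted fold change against values of 0 depends on the 0.1 added before the logarithm, so none is given for these.

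Of the 12 segments called higher, 8 were above 0 in all 4 mice. Igkv9-124 was at 3.46 and 2.47 in the Ob mice and at 8.33 and 8.94 in the exercised mice, which gave a log2 fold change of 1.53 ± 0.30 (SE, limma adjusted p = 0.943), and its values were close within each group. Ighv2-3 was at 5.24 and 2.65 in Ob against 9.53 and 9.02 in Ob + Exe, with a log2 fold change of 1.29 ± 0.38 (SE, limma adjusted p = 0.960). Ighv5-6 was at 2.66 and 1.48 without exercise and at 6.41 and 18.7 with exercise, with a log2 fold change of 2.41 ± 0.58 (SE, limma adjusted p = 0.960). Igkv12-46, the leading kappa segment of Ob + Exe mouse 1, had a log2 fold change of 3.16 ± 1.02 (SE, limma adjusted p = 0.960). Igkv4-79 (0.098 and 0 in Ob, 1.15 and 4.53 in Ob + Exe) and the pseudogene Igkv4-77 (0.0835 and 0 in Ob, 2.18 and 0.873 in Ob + Exe) rested on at most 2.39 read equivalents in each Ob mouse. The others were Igkv10-94, Igkv8-30, Ighv8-12, Ighv1-42, Ighv2-2 and Ighv2-5. Igkv12-89 and Igkv9-124 were the only V segments of the 21 that were called under all 14 other settings tried.

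The spread between mice of a group was far larger for V segments than for other genes. Among the 110 members with a mean of at least 1 FPKM, the median absolute log2 difference between the 2 mice was 2.33 in Ob and 1.90 in Ob + Exe. For all 12405 genes at that level it was 0.26 and 0.43. The mice differed by more than 1 on the log2 scale for 79.1% of these V segments in Ob and 70.9% in Ob + Exe, against 5.68% and 14.1% of all genes. Pearson's r between pairs of libraries on the log2 scale was 0.208 to 0.485 over the 110 segments and 0.899 to 0.949 over the 12405 genes, a description across genes, which are not independent. The pair with the highest r over V segments was the 2 Ob mice and the lowest was Ob mouse 2 with Ob + Exe mouse 1. The share of use that a pair of mice had in common was 31.3% to 51.9% for Ighv and 36.3% to 51.4% for Igkv, and the largest common Ighv share was between Ob mouse 1 and Ob + Exe mouse 2, of different groups, and the largest common Igkv share was between the 2 Ob + Exe mice.

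**Figure D5:**
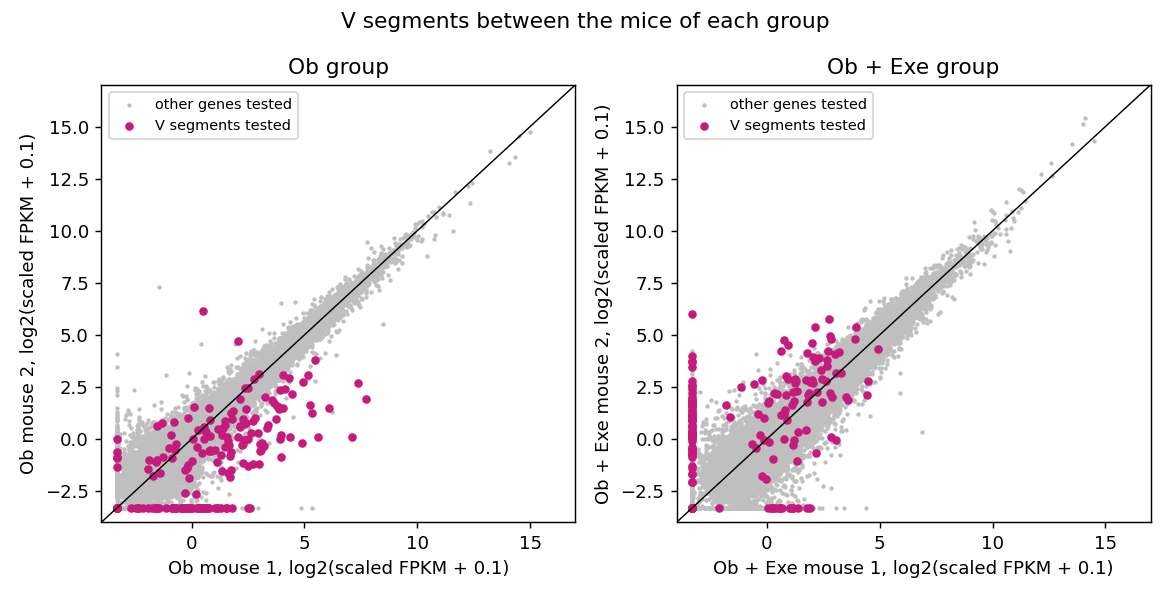
Level of each gene tested in mouse 2 against mouse 1 of the Ob group (left) and the Ob + Exe group (right), as log2(scaled FPKM + 0.1), with V segments in magenta, the other genes in grey and the line of equal values. V segments scatter widely around the line, and in the Ob + Exe panel a column of V segments stands at the lowest value of mouse 1.

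How many segments were seen at all also differed by mouse. There were 199 members above 0 in Ob mouse 1, 131 in Ob mouse 2, 101 in Ob + Exe mouse 1 and 149 in Ob + Exe mouse 2, and 67 were above 0 in all 4. At 1 FPKM or more the counts were 119, 62, 82 and 111 in that order, so Ob + Exe mouse 1 passed Ob mouse 2 at this level. Ob + Exe mouse 1 gave a value of 0 for 11 members that had at least 1 FPKM in each of the other 3 mice, among them Ighv1-55, Ighv9-3, Igkv4-59 and Igkv6-25, against 0, 4 and 1 such members in Ob mouse 1, Ob mouse 2 and Ob + Exe mouse 2. Over all genes it listed 57 such zeros, against 2, 6 and 12. Few of its genes had low values: 5 of its 101 members above 0 had fewer than 10 read equivalents, against 48, 29 and 14 in the other mice in the same order. The part of this in the segments listed at 0 in Ob + Exe, including the 7 called lower that were 0 in both Ob + Exe mice, was not tested.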

How the data were processed

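Poly-A RNA libraries of tibial marrow were sequenced as 150-base pairs. Per the methods and labels, the authors trimmed reads with fastp, removed rRNA reads, aligned with HISAT2 to GRCm38 and quantified with StringTie on GENCODE annotation. The deposited files give per transcript a coverage signal and FPKM, 1 file per mouse and no pooling. No read counts were analysed here, so a count model was not used. Alignment was to germline V segments, and the effect of hypermutated or junction-spanning reads on the values was not tested.

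FPKM was summed over transcripts of each of 55401 gene identifiers. Read equivalents are coverage times length divided by 150. Libraries were scaled by median-of-ratios factors from 12235 genes with mean FPKM of at least 1 and above 0 in all libraries. Genes with mean FPKM of at least 0.1 entered limma 3.58.1 in R 4.3.3 on log2(scaled FPKM + 0.1) using limma's trend of variance with level (2 residual degrees of freedom) and Benjamini-Hochberg adjustment. The limma fit was tested on simulated data whose spread between mice was smaller than that of the V segments. That simulation does not cover the V calls, and totals and evenness were not simulated. Totals and evenness were compared by exact permutation over mice. An exact permutation p-value measures only the spread between these mice. In limma each gene's variance is drawn toward the trend over all genes (3.73 prior against 2 residual degrees of freedom). V segments spread more between mice than other genes, so their limma SEs and p-values can be too small. All 436 V transcripts had the same coordinates in GENCODE vM21, from which sequences were read with Python 3.11.15.

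Named segments were the 6 highest Ighv and Igkv by mean, all Iglv, the leading segment of each mouse, the 4 of each locus with a mean of at least 5 whose highest mouse was the largest multiple of the median of the others, and the 5 lower and 5 higher calls with the smallest p. Others named (further leading segments of a mouse, close relatives, the remaining calls and the even pseudogene Ighv1-41) were chosen after their values were seen. Members, lists and rules were chosen with earlier results of these data known. Alternatives covered the minimum, pseudocount, scaling, test, replicate block, each mouse and the leading segments.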

Additional observations from a re-analysis of the deposited data

How the results depend on the processing

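The direction of the V totals was set by single mice and segments. Leaving out 1 mouse gave log2 ratios from -1.27 to 1.17 for Ighv, -1.32 to 0.89 for Igkv, -0.74 to 0.65 for Iglv and -1.26 to 0.95 for all V segments, kappa differences from -3.97 to 3.13 percentage points, and V to constant log2 ratios from -0.36 to 0.40. Without each mouse's own leading segment at each locus the ratios were 0.25 for Ighv, 0.12 for Igkv and 0.14 for all V segments, and the kappa difference was 2.32 points. The V to constant ratio was -0.032 from read equivalents not divided by length. The difference in effective number stayed between 10.9 and 13.2 for Ighv and 12.1 and 15.1 for Igkv when 1 mouse was left out. Counts of calls moved with the settings: with a minimum mean FPKM of 1 there were 267 genes and 5 V segments lower, with a pseudocount of 1 there were 224 and 3, with limma voom on read equivalents 450 genes with 1 V segment lower and 6 higher, without the intensity trend 1061 genes with 6 V segments higher, and without a minimum 6 V segments higher. Leaving out 1 mouse gave 745 to 1922 genes, 12 to 30 V segments lower and 1 to 16 higher. With the replicate block 776 genes were called, of which 26 V segments were lower and 26 higher, and 7 of them passed 0.05 after adjustment in limma. Same-numbered mice did not deviate together (correlation -0.11 over 18596 genes and -0.24 over the 12409 with mean FPKM of at least 1). No pairing was described, and with 2 mice a group these correlations cannot settle whether there was one. The crossed pairing, added after seeing the data, gave 782 genes with 23 V segments lower and 23 higher, 2 of them past 0.05 after adjustment. The cause of these changes was not tested. Fewer genes entered under the higher minimum (12409 against 18596), and fewer mice when 1 was left out. Limits: 2 mice a group, V values resting on 7698 to 36583 read equivalents a library, shared sequence between segments, and values of 0 that may not mean absence.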

Other observations

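The J segments, to which V segments are joined, were measured as exons of 38 to 54 bases, and their values were not used in the comparisons above. The Igkj segments summed to 689 and 169 scaled FPKM in the Ob mice and to 223 and 449 in the exercised mice, and so had the same high and low mice as the kappa V segments (log2 ratio -0.11, exact permutation p = 1). Igkj1 was the most abundant in 3 of 4 mice, at 351 and 45.1 in Ob against 127 and 253 in Ob + Exe, and Igkj2 led in Ob mouse 2, at 171 and 85.5 without exercise and at 72.3 and 137 with exercise. Igkj4 was at 75.2 and 2.33 in the Ob mice and at 19.8 and 51.9 in the exercised mice. The Ighj segments summed to 84.6 and 29.9 in Ob against 25.6 and 57.8 in Ob + Exe (exact permutation p = 0.667), with Ighj4 at 25.7 and 12.0 without exercise and at 14.8 and 19.1 with exercise. The Iglj segments summed to 72.5 and 36.1 in the Ob mice and to 50.5 and 64.1 in the exercised mice (exact permutation p = 1).

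Igkj5, the kappa joining segment nearest the constant gene, did not follow the other J segments and was singled out after its values were seen. It was at 86.3 and 34.9 in Ob, listed at 0 in Ob + Exe mouse 1 and at 2.98 in Ob + Exe mouse 2, with 224, 88.2, 0 and 6.49 read equivalents. Its limma p was 0.00553 before adjustment and 0.960 after adjustment over all genes. Igkj1 and Igkj2, from the same libraries, were above 70 scaled FPKM in both Ob + Exe mice. The D segments, 10 to 29 bases long, were hardly measured, at 1.78 and 1.03 in Ob against 0 and 0.242 in Ob + Exe.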
